A study of Mus musculus with 12 samples.

Results

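Terminal oligopyrimidine (TOP) mRNAs begin with a cytosine at the cap followed by an unbroken run of pyrimidines, and most of the known ones encode ribosomal proteins and translation factors. The 9 genes described here belong to the same class but are not among those named as ribosomal proteins or as Eif or Eef factors. The members are Tpt1, Pabpc1, Naca, Btf3, Rack1, Npm1, Nap1l1, Hnrnpa1 and Vim. They were taken by name as TOP mRNAs known from the literature. The rule uses no measured value, but the list was drawn up with earlier results of these data known. All 9 were found among the 54532 genes of the table, of which 22046 are protein-coding. The study measured RNA by sequencing in mouse limb buds at E12.5, in which Mettl14, a subunit of the nuclear complex that writes N6-methyladenosine into mRNA, had been made conditional. Control embryos, labelled cHet, carried Mettl14 wt/flox, and mutant embryos, labelled cKO, carried Mettl14 flox/flox, so that both genotypes carried at least 1 floxed allele and no library came from embryos without a floxed allele. From each genotype the cytoplasmic lysate (input) and the polysome fraction of a sucrose gradient were sequenced, with 3 biological replicates in each of the 4 groups and 12 libraries in all. The Cre driver, the exons removed, the number of embryos pooled in a replicate and whether the libraries keep strand are not given in the sources used here.

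The TOP run lets a cell switch translation of the whole class at once. When the kinase complex mTORC1 is active the mRNAs are loaded on polysomes, and when it is inactive the protein LARP1 binds the cap and the adjoining cytosine, the mRNAs leave polysomes and are kept in stable particles. Among the 9, Pabpc1 encodes the main cytoplasmic poly(A)-binding protein, Rack1 a scaffold protein of the small ribosomal subunit, and Naca and Btf3 the alpha and beta subunits of the nascent polypeptide-associated complex, which binds new chains as they leave the ribosome. Tpt1 encodes the translationally controlled tumour protein. Npm1 encodes a nucleolar chaperone of ribosome assembly, Nap1l1 a histone chaperone, Hnrnpa1 an RNA-binding protein that acts in splicing, and Vim the intermediate filament protein of mesenchymal cells.

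The starts of these mRNAs are shown because the class is defined by them. Each line gives 30 bases in transcript order, 5′ to 3′, from the annotated start at which the gene's pyrimidine run is longest, taken from GENCODE M21 transcripts or, for Vim, from the RefSeq start. RefSeq starts were at hand for 7 of the 9 genes, and the coordinates in the following sentences are those of mm10. Capitals mark the unbroken run of C and T that begins with C at the first base.
Tpt1: CTTTTCCgcccgctcccccctccccccgcg
Pabpc1: CCCCTTCTCCCCggcggttagtgctgagag
Rack1: CTTTTTCTCCacagggtcgtggtggcagcc
Nap1l1: CTTTTTTagcgccatctgctcgcggcgccg
Hnrnpa1: CTTTCTgctctttgacgctgccgaggaagc
Npm1: CCTTggcgtgattccgtcctgcgcgtctgt
Vim: CTCTgccactcttgctccgggaccccagag
Naca: CTCgctcgttctctttctgccgccatcttg
Btf3: CTTgcgtccccgcgtgtgtgcgccttctct

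The Tpt1 stretch lies at chr14:75845331-75845360 on the plus strand and begins Tpt1-206, a transcript annotated as a retained intron. Pabpc1-201 begins in chr15:36608944-36608973 on the minus strand and Rack1-201 in chr11:48800360-48800389 on the plus strand. Nap1l1-207 starts in chr10:111473227-111473256 and Hnrnpa1-202 in chr15:103240454-103240483, both on the plus strand. The other 4 stretches were chr11:33163047-33163076 on the minus strand for Npm1-203, chr2:13574311-13574340 on the plus strand for Vim, chr10:128035635-128035664 on the plus strand for Naca-202 and chr13:98316938-98316967 on the minus strand for Btf3-201. All the GENCODE stretches fall within the first exon of their transcript.

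Counted as a C followed by at least 4 C or T with no gap, that is a run of at least 5 bases on the transcript strand at any annotated start, the run was present in 5 of the 9 genes, or 55.6%: Tpt1, Pabpc1, Rack1, Nap1l1 and Hnrnpa1. It ranged from 6 bases in Hnrnpa1 to 12 in Pabpc1. By the same count it was present in 42 of 78 cytosolic ribosomal protein genes, or 53.8%, in 4 of 11 TOP translation factor genes, or 36.4%, and in 1421 of 11886 protein-coding genes tested, or 11.96%. Annotated starts can differ by a few bases from the start a limb bud cell uses, so a missing run says only that these letters are not at an annotated start.

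The libraries held between 10349912 and 30068823 reads assigned to genes. A single value of the 9 genes rested on between 3323 reads (Vim) and 74867 reads (Tpt1). Mettl14 itself was at 4.03 to 4.09 FPKM in cHet input and at 2.60, 3.32 and 1.26 FPKM in cKO input, and on polysomes it was at 2.83 to 3.07 FPKM in cHet and 2.73 to 3.29 FPKM in cKO. The groups separated in input, with a log2 difference of −0.83 that missed the threshold (limma, adjusted p = 0.295), and did not separate on polysomes (−0.02, adjusted p = 0.954). Because the exons removed are not given, a gene-wide value is a limited check of the genotype labels. All 10 limb mesenchyme markers were at 1 FPKM or more on average. Of the markers of all cell types listed, only Acan, Ptprc, Pax3 and Elavl3 averaged under 0.5 FPKM. In 2 libraries the profile lay far from the other replicates of the group. Across 13610 genes, cKO input replicate 3 differed from the mean of the other 2 by a root mean square of 0.732 on the log2 scale, against 0.264 to 0.490 for the other input libraries, and cKO polysome replicate 1 differed by 0.568, against 0.318 to 0.411. Where a call or the sign of a value of the 9 mRNAs rested on them, it is given with and without them. Marker sums and likeness of profiles are given with all libraries only.

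The 9 mRNAs were abundant and together took between 0.902% and 1.12% of input reads, against 0.577% to 0.641% of polysome reads. Levels are given in FPKM, fragments per kilobase of gene model at a fixed library depth, scaled by the authors across libraries. In cHet input Tpt1 stood highest at 1058 ± 47.1 FPKM (SD, n = 3) and ranked 24 of 22046 protein-coding genes. Hnrnpa1 followed at 535 ± 10.2 FPKM, Npm1 at 383 ± 14.9, Rack1 at 337 ± 8.31, Btf3 at 280.5 ± 7.49, Pabpc1 at 192 ± 6.16, Vim at 165 ± 4.36, Nap1l1 at 127 ± 3.21 and Naca, ranked 423, at 95.9 ± 2.19. No neighbours in this order overlapped between replicates, so the order is that of every cHet input library. On cHet polysomes Tpt1 was still highest, Btf3 moved up to second place, and neighbours among the last 3 places, Nap1l1, Vim and Pabpc1, overlapped. In cKO input the neighbours from Hnrnpa1 through Rack1 and Npm1 to Btf3 overlapped, as did those from Vim through Nap1l1 to Naca. On cKO polysomes Hnrnpa1 came first at 393 FPKM, with Tpt1 next at 360.1. All neighbours in that order overlapped except Npm1 with Rack1 and Rack1 with Nap1l1.

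The order between genes depends on the length used. The deposited values divide by the summed exons of all transcripts of a gene, which is longer than the principal transcript by 1.27 times for Nap1l1 and by 7.69 times for Naca, whose gene model of 6805 bases includes the 6745 bases of a long coding transcript while the principal one, Naca-201, has 885. Divided by the principal transcript instead, the cHet input order was Tpt1, Rack1, Hnrnpa1, Naca, Npm1, Btf3, Pabpc1, Vim and Nap1l1, with Naca at 737 FPKM and Rack1 at 1193. Comparisons of a gene with itself are untouched by this. Genes that overlap the members can share reads where strand is not kept, among them Trim41 at Rack1, at 13.7 to 29.05 FPKM.

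**Figure D1:**
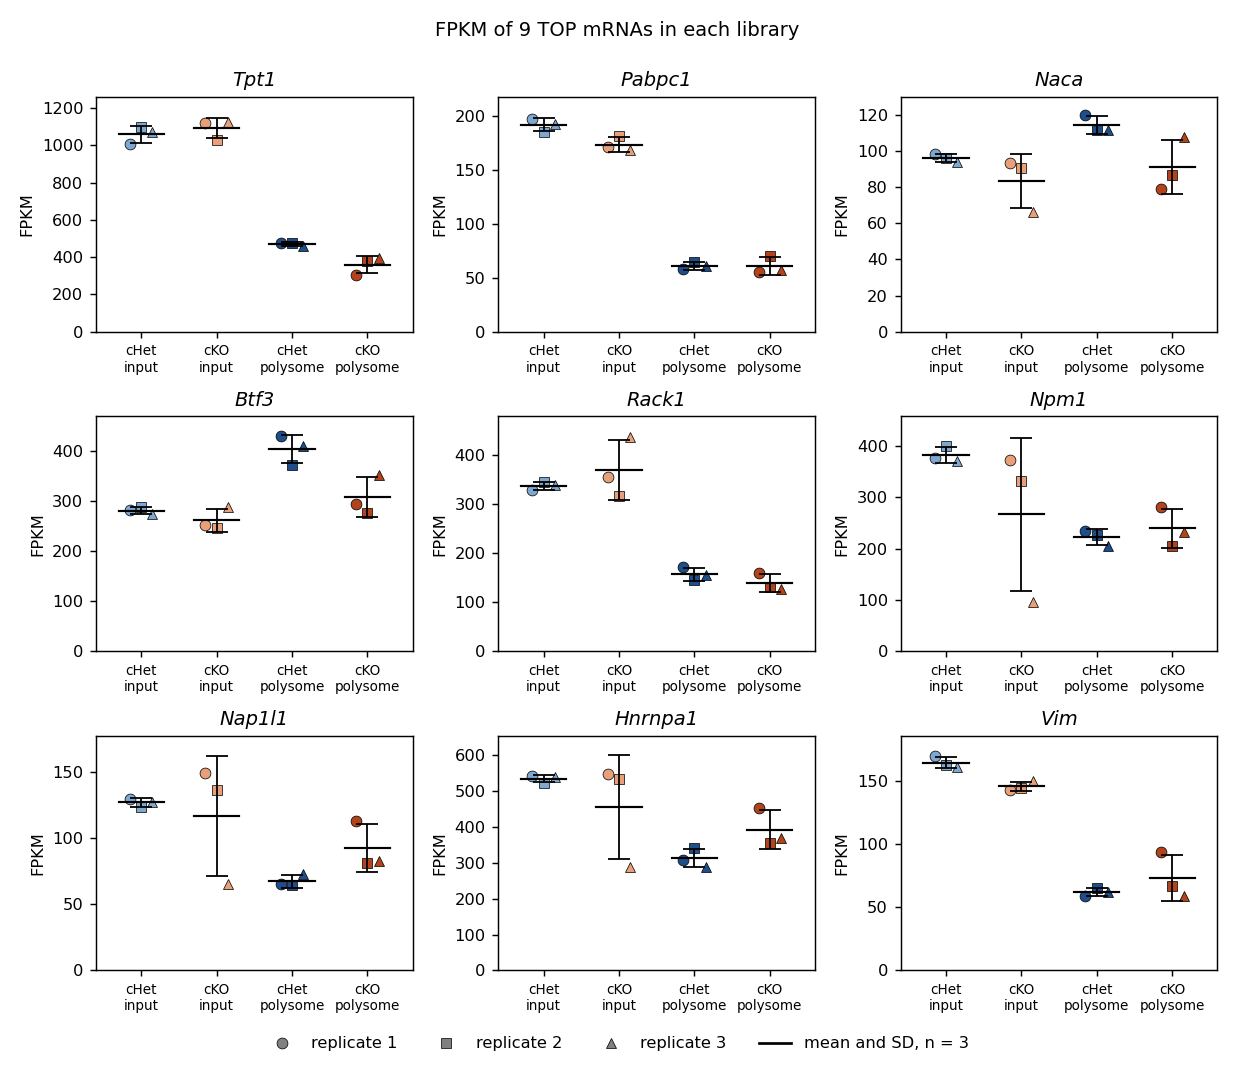
Level of each of the 9 TOP mRNAs in every library. Each panel is 1 gene, the vertical axis is FPKM and starts at 0, points are libraries (marker shape gives the replicate), and bars are the group mean and SD (n = 3). Tpt1 dropped from 1058 FPKM in cHet input to 470.4 on cHet polysomes, whereas Btf3 went from 280.5 to 403, and the low cKO input point of Npm1, at 96.6, is replicate 3.

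The first comparison asked how each mRNA is distributed between lysate and polysomes in control limb buds. In cHet, 7 of the 9 mRNAs had a lower FPKM on polysomes than in input and 2, Naca and Btf3, a higher one. Both exceptions encode subunits of the nascent polypeptide-associated complex. The test called 6 mRNAs lower and 1 higher (limma on log2(FPKM + 0.1), Benjamini-Hochberg adjusted p under 0.05), where 53.2% of the 13610 genes tested were called, 25.9% lower and 27.3% higher. The difference is one of shares of each fraction's RNA, since libraries are scaled to a common median over genes, and not of molecules per cell.

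Pabpc1 had the lowest share on polysomes. It was at 197, 185 and 192 FPKM in cHet input and at 57.6, 65.0 and 60.5 FPKM on cHet polysomes. The groups were far apart, and the difference of −1.65 on the log2(FPKM + 0.1) scale (SE 0.12, limma adjusted p = 2.06e-05) corresponds to 3.14-fold less. Vim, in the same direction, was at 169.7, 163 and 162 FPKM in input and at 58.7, 65.2 and 62.0 on polysomes, a log2 difference of −1.41 (SE 0.16, limma adjusted p = 1.04e-04).

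Tpt1 and Rack1 came next. Tpt1 was at 1006, 1097 and 1071 FPKM in cHet input and at 474, 477 and 459.6 FPKM on polysomes, 2.25-fold less (log2 −1.17, SE 0.12, limma adjusted p = 9.56e-05). Rack1 was at 328, 345 and 339 FPKM in input and at 171, 145 and 155 on polysomes, 2.15-fold less (log2 −1.10, SE 0.15, limma adjusted p = 1.86e-04). No polysome library of either gene reached the level of an input library.

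The mRNAs of the chaperones Npm1 and Nap1l1 and of the RNA-binding protein Hnrnpa1 were lower by a smaller margin. Nap1l1 was at 129.8, 123 and 127 FPKM in cHet input and at 65.1, 64.2 and 73.0 on polysomes (log2 −0.91, SE 0.26, limma adjusted p = 0.0106). Hnrnpa1 was at 542, 524 and 540.2 FPKM in input and 309, 341 and 289 on polysomes (log2 −0.78, SE 0.21, limma adjusted p = 0.00911). Npm1 was at 376, 399.6 and 372 FPKM in input and 234, 227 and 204 on polysomes, a log2 difference of −0.79 as large as that of Hnrnpa1 with an SE of 0.38 and an adjusted p of 0.0982 in limma. The cHet groups of Npm1 did not overlap, and its wide error comes from cKO input replicate 3, which enters the shared estimate of spread: without that library the limma adjusted p was 4.28e-04.

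Btf3 was the mRNA called higher on polysomes. It was at 281, 288 and 273 FPKM in cHet input and at 428, 372 and 409.8 FPKM on polysomes, 1.44-fold more (log2 0.52, SE 0.13, limma adjusted p = 0.00555). Naca, its partner, was at 98.0, 96.0 and 93.7 FPKM in input and at 119.7, 112 and 111 on polysomes (log2 0.25, SE 0.16), which missed the threshold (limma adjusted p = 0.195) although no library of a group reached the other group. For all 9 mRNAs the cHet input and polysome libraries did not overlap, as was the case for 75.3% of all genes tested. Without the cKO libraries that stood apart, which enter the estimate of spread, all 9 were called in cHet, 7 lower and 2 higher, where 71.7% of all genes were.

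The ratio of polysome to input FPKM within the same-numbered lysate spread little between cHet replicates. It was 0.292, 0.351 and 0.315 for Pabpc1, 0.346, 0.400 and 0.384 for Vim, 0.472, 0.435 and 0.429 for Tpt1 and 0.522, 0.420 and 0.458 for Rack1. Npm1, Nap1l1 and Hnrnpa1 were closer to parity, with 0.501 to 0.573 for Nap1l1, 0.536 to 0.650 for Hnrnpa1 and 0.550 to 0.621 for Npm1. Naca, at 1.16 to 1.22, and Btf3, at 1.29 to 1.53, stood above 1 in every lysate.

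**Figure D2:**
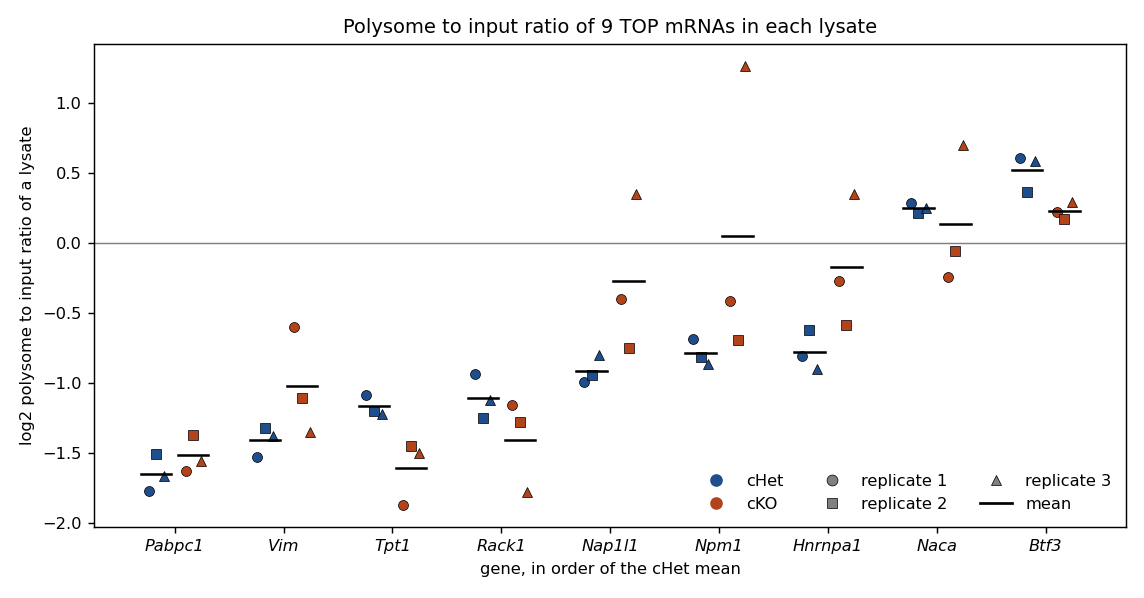
Polysome to input ratio of FPKM for each of the 9 TOP mRNAs in each lysate. The vertical axis is the log2 ratio, points are same-numbered pairs of libraries coloured by genotype, black bars are means, the grey line at 0 marks a ratio of 1, and genes are in the order of their cHet mean. In cHet only Naca and Btf3 lie above the line, and the pair of cKO replicate 3 lies above the other cKO pairs for Naca (1.63), Npm1 (2.41), Nap1l1 (1.27) and Hnrnpa1 (1.28).

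Set beside the rest of the class, the 9 mRNAs had a median polysome minus input difference of −0.91 (log2) in cHet, against 0.02 for all 13610 genes. The 78 ribosomal protein mRNAs had a median of −0.30, with 28 called lower and 4 higher. The 11 TOP translation factor mRNAs had a median of −0.93, with 10 called lower and none higher, led by Eef1a1 (−1.62, limma adjusted p = 6.21e-05), which encodes the elongation factor that brings aminoacyl-tRNA to the ribosome. Within the range of −1.62 to −0.39 that the translation factors spanned lay 6 of the 9, with Pabpc1 just below it, whereas Btf3, at 0.52, was close to the highest ribosomal protein mRNA at 0.64. The libraries were also scaled to the summed FPKM of protein-coding genes, with those of the mitochondrial genome left out. This shifted the median of all genes from 0.02 to −0.21. The share of calls that were higher went from 51.3% to 35.04%. Under that scaling Btf3 was still called higher (0.29, limma adjusted p = 0.0312) and Naca was at 0.02 (adjusted p = 0.913).

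**Figure D3:**
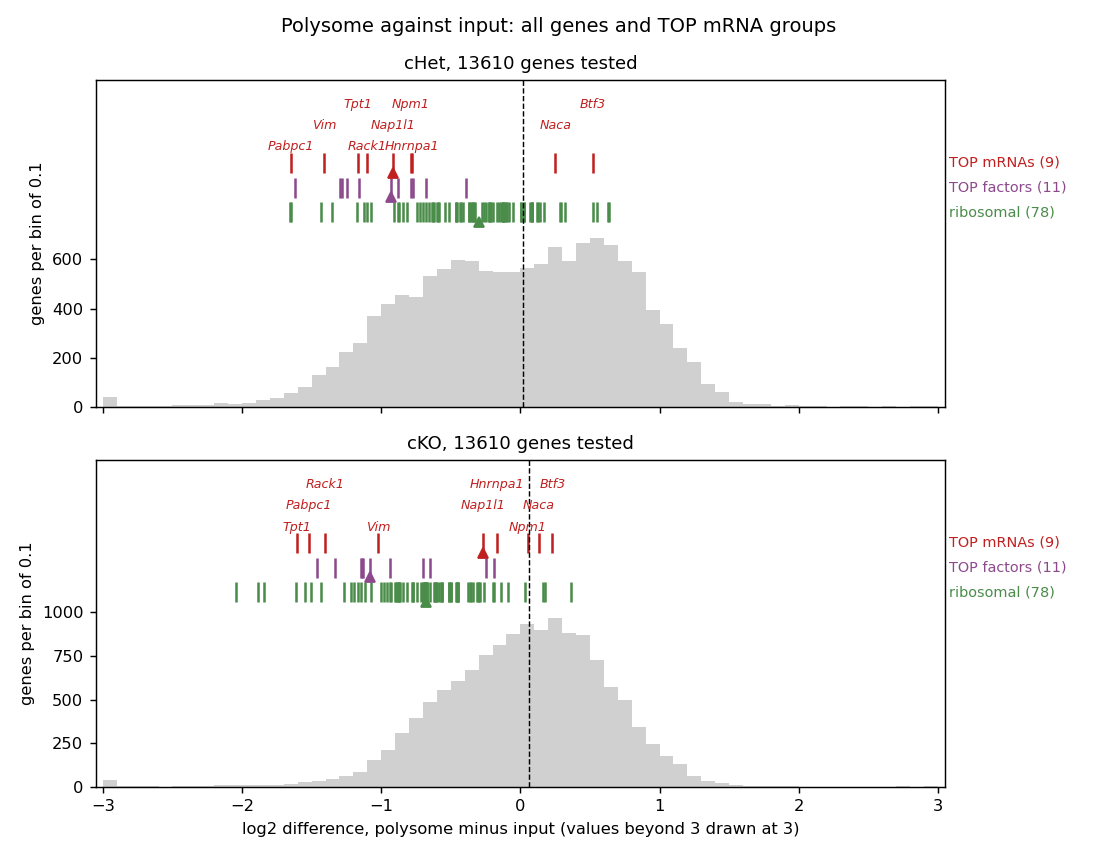
Polysome minus input log2 difference of the 9 TOP mRNAs (red), 11 TOP translation factor mRNAs (purple) and 78 ribosomal protein mRNAs (green) above the histogram of all 13610 genes tested (grey), for cHet and cKO. Ticks are genes, triangles are list medians and the dashed line is the median of all genes. In cHet the red median lies at −0.91 and the green at −0.30, and in cKO at −0.27 and −0.68. Npm1 in cKO, at 0.05, lies at −0.076 with scaling to protein-coding FPKM.

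The members with a pyrimidine run at an annotated start had a lower median than those without. The 5 with a run of at least 5 bases had a median of −1.10 in cHet and the 4 without, Npm1, Vim, Naca and Btf3, a median of −0.27. Among all protein-coding genes tested the corresponding medians were −0.13 for 1421 genes with a run and 0.01 for 10465 without. Vim goes against the split, with a run of 4 bases and the second lowest polysome share of the 9, and so do the translation factors, whose 4 genes with a run had a median of −0.73 and whose 7 without had −1.25. Among the ribosomal protein genes the medians were alike, −0.29 for the 42 with a run and −0.30 for the 36 without. A run at any annotated start was enough to count. It was at 1 of 9 starts for Tpt1, 2 of 10 for Pabpc1, 2 of 7 for Rack1, 2 of 8 for Nap1l1 and 1 of 6 for Hnrnpa1. The medians are descriptions over few genes.

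Relatives of the 9 genes covered both directions too. Of 17 paralogs and partners 13 were measured, with a median of −0.82 in cHet, 7 called lower and 4 higher. The intermediate filament relatives of Vim were lower on polysomes: Nes at −1.62, Lmna at −1.29 and Des at −1.18 (limma adjusted p from 9.72e-05 to 9.93e-04). Npm3, a relative of Npm1, was higher at 1.00 (limma adjusted p = 0.00112) where Npm1 was at −0.79. Chosen after their values were seen, Pabpc4 was lower (−0.57, limma adjusted p = 0.00413) as Pabpc1 was, and Btf3l4 higher (0.72, limma adjusted p = 0.00648) as Btf3 was. Hnrnpa0 (0.48) and Nap1l5 (1.12) had positive values where Hnrnpa1 and Nap1l1 were lower. Hnrnpa2b1, Hnrnpa3, Nap1l2, Nap1l3 and Nap1l4 had negative values.

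Of the 31 genes listed as regulators of TOP mRNAs, 30 were measured, with a median of −0.28 in cHet, 11 called lower and 8 higher, Pabpc1 itself among the lower. Cnbp, a zinc finger protein that binds the start of TOP mRNAs, was called higher (0.84, limma adjusted p = 3.61e-04). Rptor, the mTORC1 subunit that recruits substrates, was called lower (−1.27, adjusted p = 5.52e-04), as was the cap-binding complex helicase Eif4a1 (−0.91, adjusted p = 6.42e-04). Larp1 and Mtor, singled out for their role after the values were seen, were both lower (−0.79 and −0.80).

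The second comparison was the same one in mutant limb buds. In cKO the test called 4 of the 9 mRNAs, all lower on polysomes, where 32.5% of all genes were called and 15.6% lower. The 4 were Tpt1, Pabpc1, Rack1 and Vim. None of the other 5 was called in either direction while all libraries were kept, and the input and polysome libraries of 4 of the 9 did not overlap, against 35% of all genes. Leaving out cKO input replicate 3 and cKO polysome replicate 1, the test called 8 of 9, of which 7 were lower and Btf3 higher, where 59.5% of all genes were called and 30% lower.

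Tpt1 was at 1122, 1029.6 and 1124 FPKM in cKO input and at 306, 377 and 398 FPKM on cKO polysomes, 3.048-fold less (log2 −1.61, SE 0.12, limma adjusted p = 2.36e-05). Pabpc1 was at 171, 181 and 168 FPKM in input and 55.1, 69.9 and 57.0 on polysomes (log2 −1.52, SE 0.12, limma adjusted p = 3.09e-05). These were the widest separations among the 9 in this genotype. Rack1 was at 356, 316 and 436 FPKM in input and 159.6, 129.95 and 127 on polysomes (log2 −1.41, SE 0.15, limma adjusted p = 1.80e-04). Vim was at 143, 145 and 150.1 FPKM in input and 94.1, 67.0 and 58.6 on polysomes (log2 −1.02, SE 0.16, limma adjusted p = 0.00112), with its highest polysome value in replicate 1, a library that stood apart. Without the 2 libraries the 4 differences were −1.47, −1.48, −1.38 and −1.20.

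Npm1, Nap1l1 and Hnrnpa1 were the members most affected by a single library. Npm1 was at 373, 331 and 96.6 FPKM in cKO input and at 280.2, 205 and 233 FPKM on polysomes. Nap1l1 was at 149, 136 and 65.2 FPKM in input and 113, 80.8 and 83.0 on polysomes, and Hnrnpa1 was at 548, 533 and 289.6 in input and 454, 355 and 370.3 on polysomes. In each of the 3 the third input library is the low one, at 27.4% of the mean of the other 2 for Npm1, 45.6% for Nap1l1 and 53.6% for Hnrnpa1, and groups overlap because of it. That library also had the lowest Mettl14 value of the inputs and the highest share of reads in ribosomal protein genes, 9.14% against 7.32% and 7.85% in the other cKO inputs, and the part of either in the result was not tested.

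With all libraries none of these 3 was called. Npm1 was at 0.05 (log2, SE 0.38, limma adjusted p = 0.927), a value that turned to −0.076 with scaling to protein-coding FPKM. Nap1l1 was at −0.27 (limma adjusted p = 0.447) and Hnrnpa1 at −0.17 (limma adjusted p = 0.573). Without cKO input replicate 3 alone, all 3 were called lower, Npm1 at −0.57 (limma adjusted p = 0.0106), Nap1l1 at −0.65 (adjusted p = 0.00707) and Hnrnpa1 at −0.47 (adjusted p = 0.0176), and 7 of the 9 members were called. Without both libraries that stood apart the values were −0.69, −0.80 and −0.58 (limma adjusted p from 9.67e-05 to 7.99e-04), beside −0.79, −0.91 and −0.78 in cHet with all libraries.

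The subunits of the nascent polypeptide-associated complex were not called in cKO with all libraries. Btf3 was at 251, 245 and 287 FPKM in input and 293, 276 and 352 on polysomes (log2 0.23, SE 0.13, limma adjusted p = 0.192), with groups that overlapped, and without the 2 libraries it was called higher (0.33, adjusted p = 0.0404). Naca was at 93.2, 90.3 and 66.0 FPKM in input and 78.7, 86.7 and 107 on polysomes (log2 0.13, SE 0.16, limma adjusted p = 0.545). Its low input and high polysome values both come from replicate 3, and without cKO input replicate 3 the difference was −0.024. The ratios for Btf3 were 1.17, 1.13 and 1.23 and those for Naca 0.845, 0.960 and 1.63.

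With all libraries the ribosomal protein mRNAs had a lower median than the members in cKO, and without the 2 that stood apart the order of the lists was that of cHet. The members' median was −0.27 with all libraries and −0.80 without the 2 that stood apart, against 0.06 and −0.00 for all genes. For the ribosomal protein mRNAs it was −0.68, with 56 called lower and none higher, and −0.48 without those libraries, with 46 lower and 3 higher. The translation factors were at −1.08 and −1.05, with 9 and 10 of 11 called lower. Of the paralogs 4 were called lower and 3 higher, and of the regulators 9 lower and 6 higher. Among these regulators was Rheb, the GTPase that activates mTORC1, higher at 1.10 (log2, limma adjusted p = 0.00298). Without the 2 libraries, 6 paralogs were called lower and 2 higher, and 14 regulators lower and 10 higher. Over all genes, the share of calls that were higher went from 52.1% to 38.4% with scaling to protein-coding FPKM.

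The third comparison was between genotypes in input. None of the 9 mRNAs was called (limma, adjusted p from 0.428 for Vim to 0.841 for Tpt1), as was none of the 12977 genes tested (0%). Before adjustment 1943 genes, or 15%, had a p under 0.05, no member among them, and limma-voom on the recovered reads called 0 genes. Tpt1 differed by 0.05 (log2, SE 0.11), a value that turned to −0.0064 with scaling to protein-coding FPKM, and Rack1 by 0.12 (SE 0.14). The other 7 had negative values: Pabpc1 −0.14 (SE 0.10), Naca −0.22 (SE 0.15), Btf3 −0.11 (SE 0.11), Vim −0.17 (SE 0.09), Nap1l1 −0.21 (SE 0.30), Hnrnpa1 −0.29 (SE 0.24) and Npm1 −0.74 (SE 0.48). In bulk RNA, fewer cells of a type and less RNA per cell cannot be told apart.

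Pabpc1, Naca and Vim were lower in every cKO input library than in any cHet one, 3 of 9 where 29.3% of all genes had groups that did not overlap. Without cKO input replicate 3, Npm1 was at −0.12, Nap1l1 at 0.17, Hnrnpa1 at 0.014 and Rack1 at −0.0062, and Naca at −0.06, so the values of Npm1, Nap1l1 and Hnrnpa1 and the sign of Rack1 rest on that library. The test then called 326 of 12827 genes (2.54%) and no member. Vim, at −0.20, and Pabpc1, at −0.12, stayed close to their values with all libraries. The ribosomal protein mRNAs were on the other side of 0, with a median of 0.17 and 69 of 78 higher, none called, against −0.17 for the 9 members and −0.01 for all genes. Without cKO input replicate 3 these medians were nearer to 0, at 0.057 for the ribosomal protein mRNAs, with 56 of 78 higher, and at −0.063 for the members. The TOP translation factor mRNAs had a median of 0.14, with 8 of 11 higher and none called, and of 0.077 without that library.

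The fourth comparison was between genotypes on polysomes. No member was called (limma, adjusted p from 0.206 for Nap1l1 to 0.966 for Pabpc1) and none of 12877 genes was (0%), while 2743 genes, or 21.3%, had an unadjusted p under 0.05 and limma-voom called 0. The members at an unadjusted p under 0.05 were Tpt1 (−0.39, SE 0.16), Btf3 (−0.40, SE 0.17) and Nap1l1 (0.44, SE 0.18). Of the other members, Naca (−0.34, SE 0.17) and Rack1 (−0.18, SE 0.16) had negative values. Those of Hnrnpa1 (0.32, SE 0.17), Npm1 (0.10, SE 0.17) and Vim (0.21, SE 0.19) were positive. Pabpc1 was at −0.01, or 0.031 with scaling to protein-coding FPKM.

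Every cKO polysome library of Tpt1 (306 to 398 FPKM) lay below every cHet one (459.6 to 477), and the same held for Naca and Btf3, whereas Nap1l1 and Hnrnpa1 were higher in every cKO library. These 5 of 9 compare with 31.4% of all genes whose groups did not overlap. Without cKO polysome replicate 1, Tpt1 was at −0.28, Btf3 at −0.37, Naca at −0.24, Rack1 at −0.29, Nap1l1 at 0.28, Hnrnpa1 at 0.21, Vim at 0.018 and Npm1 at −0.021. The test then called 160 of 12738 genes (1.26%) and no member. The members' median was −0.01 and that of all genes 0.02, while 68 of 78 ribosomal protein mRNAs were lower in cKO, with a median of −0.28 and none called. Without cKO polysome replicate 1 their median was −0.15, with 60 of 78 lower. The TOP translation factor mRNAs had a median of 0.12, with 8 of 11 higher and none called, and of 0.061 without that library.

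**Figure D4:**
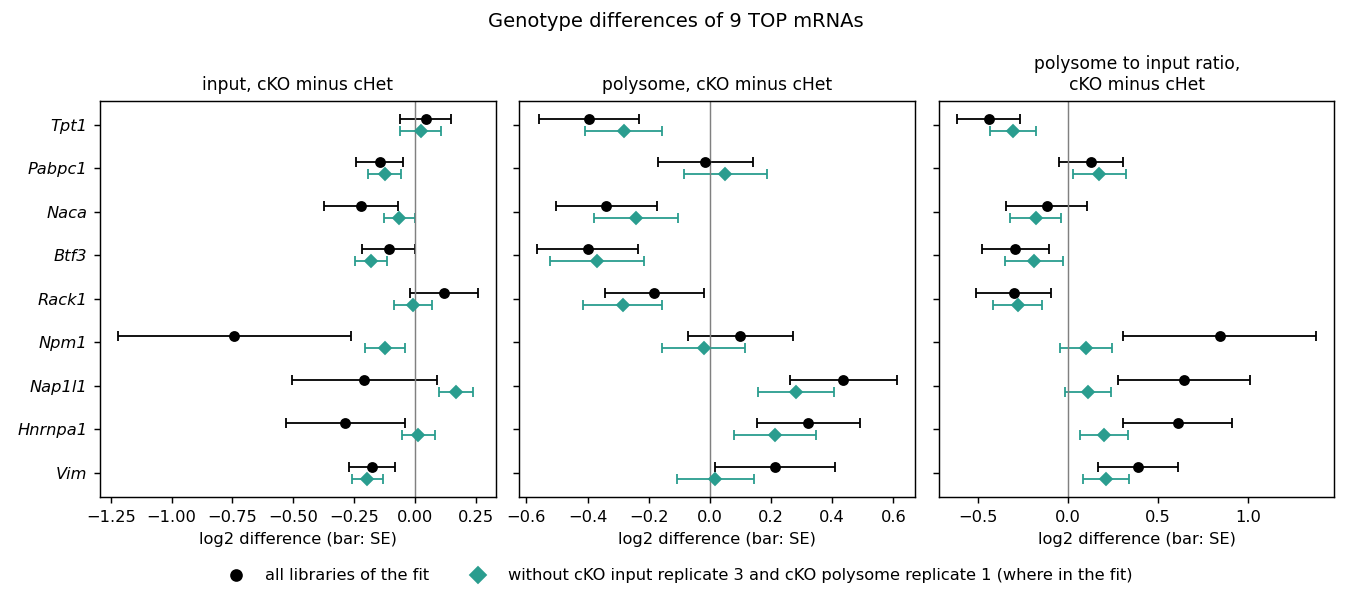
Genotype differences of the 9 TOP mRNAs in input, on polysomes and in the polysome to input ratio. Points are log2 differences, cKO minus cHet, bars are standard errors from limma, black is the fit of all libraries and green the fit without cKO input replicate 3 and cKO polysome replicate 1. Black and green differ most for Npm1 in input (−0.74 and −0.12) and in the ratio (0.84 and 0.10). The small values of Tpt1 in input and Pabpc1 on polysomes change sign with scaling to protein-coding FPKM.

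The last comparison asked whether the polysome to input ratio differed between genotypes, as a term for the interaction of genotype and fraction. No member was called and none of the 13610 genes was (0%, limma). Before adjustment 638 genes, or 4.69%, had a p under 0.05, and 1 member, Tpt1, and limma-voom called 0 genes. The Tpt1 ratio was 0.472, 0.435 and 0.429 in cHet and 0.273, 0.366 and 0.354 in cKO, lower in every cKO lysate, with an interaction of −0.44 (log2, SE 0.18, limma adjusted p = 0.790) and of −0.31 without the 2 libraries that stood apart. Btf3 was also lower in every cKO lysate (−0.29, SE 0.18), and Nap1l1 (0.64, SE 0.36) and Hnrnpa1 (0.61, SE 0.30) were higher in every one. These 4 of 9 compare with 18.4% of all genes without overlap.

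The positive interaction values of Npm1, Nap1l1 and Hnrnpa1 were smaller without the 2 libraries, at 0.10 in place of 0.84 (SE 0.54) for Npm1, 0.11 for Nap1l1 and 0.20 for Hnrnpa1. Vim went from 0.39 (SE 0.22) to 0.21. Its cKO ratios were 0.659, 0.463 and 0.391, and the first of them holds the polysome library that stood apart. Pabpc1 had ratios of 0.323, 0.386 and 0.339 in cKO and an interaction of 0.13 (SE 0.18), Rack1 had ratios of 0.448, 0.411 and 0.291 and an interaction of −0.30 (SE 0.21), and Naca was at −0.12 (SE 0.22). The median interaction was −0.42 for the ribosomal protein mRNAs and −0.18 without the 2 libraries, against 0.13 and 0.10 for the members. For the TOP translation factor mRNAs it was 0.16 with all libraries, with 8 of 11 higher, and 0.085 without the 2. For all genes it was 0.02.

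No marker of any cell type list was called between genotypes in either fraction with all libraries (limma), but some summed levels did not overlap. Of single genes tested, the groups of 29.3% did not overlap in input and those of 31.4% on polysomes. The summed level of the 7 epidermis markers was 281 to 284 FPKM in cHet input and 335 to 377 in cKO input, with none at 0, and that of 8 macrophage markers 34.5 to 40.9 against 43.7 to 61.6. On polysomes the epidermis markers summed to 119.9 to 135 FPKM in cHet and 165 to 350.3 in cKO, and the macrophage markers to 29.99 to 40.9 and 45.1 to 78.0. The 10 limb mesenchyme markers summed to 765 to 936 FPKM in cHet input and 1052 to 1261 in cKO input, and overlapped on polysomes (1395 to 1581 and 1288 to 1933). The 9 erythroid markers had negative values in both fractions, with a median log2 difference of −0.49 in input and −0.28 on polysomes, and sums that overlapped. Sums of the endothelium and muscle markers overlapped in input, with 3 of 7 and 1 of 6 measured genes higher in cKO. The chondrogenic sums overlapped in both fractions. The 6 nerve and glia markers summed to 15.9 to 17.6 FPKM in cHet input and 18.7 to 25.2 in cKO input. On polysomes they summed to 8.96 to 10.6 and 12.6 to 21.9. Vim, which is itself a mesenchymal gene, was at −0.17 between genotypes in input. The part of these differences in the genotype values of the 9 mRNAs was not tested.

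Among the regulators and relatives no gene was called between genotypes. Castor1, an arginine sensor upstream of mTORC1, had the lowest adjusted p of the regulators in input (0.86, limma adjusted p = 0.143), and Nap1l3, a relative of Nap1l1, that of the paralogs on polysomes (1.12, limma adjusted p = 0.0955), where it passed the filter on low values only with cKO polysome replicate 1 included. Eef1a1, which like the 9 is a TOP mRNA, was at 0.48 in input (adjusted p = 0.222) and 0.64 on polysomes (adjusted p = 0.132).

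Across the 12 libraries the genes whose log2 profile was most like the mean of the 9, among 7445 protein-coding genes outside them, were Eif3e (Pearson r = 0.991), Rpl7 (0.989), Igf2bp3 (0.989), Amot (0.983) and Dusp11 (0.971). Eif3e, an initiation factor subunit, and Rpl7, a ribosomal protein, are on the TOP lists used here. These correlations are descriptions: the libraries fall into 2 fractions and 2 genotypes and include those that stood apart, and the part of each was not tested. Rack1 was most like Rpl4 (0.986) and Eif3h (0.985), and Tpt1 most like Igf2 and Rps7 (both 0.983). Pabpc1 was most like the mitochondrially encoded mt-Co3 (0.991) and mt-Nd1 (0.985), Vim like Sec31a and Iars (both 0.993), and Nap1l1 like Sept10 (0.990) and Kbtbd7 (0.989). Hnrnpa1 was most like the splicing factor Sf3b1 (0.991) and Iws1 (0.988), and Npm1 like Stag2 and Stk26 (both 0.980). Naca and Btf3 were like other genes again, Capza1 (0.957) and Tpm4 (0.955) for Naca and Wdr82 (0.961) and Sgf29 (0.956) for Btf3.

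A processed copy of Tpt1 was counted beside it. Tpt1-ps3 was listed at 341 ± 29.5 FPKM (SD, n = 3) in cHet input and 157 ± 12.1 on cHet polysomes, a log2 difference of −1.12 in cHet and −1.46 in cKO, beside −1.17 and −1.61 for Tpt1. Reads of the parent mRNA could have been assigned to the copy. Adding the reads of the copy to those of Tpt1 changed no call of Tpt1.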

How the data were processed

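RNA from limb bud lysates (input) and polysome fractions was sequenced in 12 libraries, 3 per group. Per the submitters' processing notes the authors aligned reads to mm10 with HISAT2 2.0.5 and counted them with featureCounts 1.5.0-p3, and they deposited FPKM values. The deposited FPKM returned whole reads for 100% of values when multiplied by gene length (tolerance 0.01 reads), and the median ratio to the geometric mean over 18104 genes was 1.02 in every library, so the authors' values already carried a median-ratio scaling. Reads per library and their precision are given with the results.

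Differences were tested with limma 3.58.1 in R 4.3.3 on log2(FPKM + 0.1), with a trend, for genes at 1 FPKM or more in at least 3 of the libraries fitted, and adjusted over all genes tested. Such log2 differences understate changes of low genes. Genotypes were compared within a fraction (6 libraries), and fractions and the interaction over all 12, with 4 group means. The p-values measure the spread between libraries, whose litters are not given. The methods were tested on simulated data, whose libraries were independent, without shared lysates or libraries that stood apart. Input and polysome libraries of 1 number and genotype were taken as 1 lysate, because the series design makes both RNAs from each cytoplasmic fraction. The library titles give only the genotype, fraction and replicate number. Deviations of these pairs from group means correlated at 0.05 to 0.25.

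All 9 members were named in each comparison, other lists by up to 4 genes of lowest p, and similar profiles by the highest Pearson r. The members and lists were chosen with earlier results of these data known. Alternatives tried were a pseudocount of 1, no filter, other scalings, limma-voom, blocks, and leaving out libraries. Total-read scaling and the added reads of Tpt1-ps3 were chosen after seeing the data.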

Additional observations from a re-analysis of the deposited data

How the results depend on the processing

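Over 45 results on single members, 779 alternative values were computed. Of these, 757 kept direction and side of the threshold, 0 lost a call, 8 gained one in the same direction and 14 turned direction. Among the values that turned, Npm1 between fractions in cKO was also called, without cKO input replicate 3 and without both libraries that stood apart. Except for Npm1 and Naca between fractions in cKO, the values that turned were genotype differences that no fit called. With scaling to protein-coding FPKM Tpt1 in input was −0.0064, Pabpc1 between genotypes on polysomes 0.031 and Npm1 between fractions in cKO −0.076. Leaving out 1 library at a time, the genotype difference in input ran from −0.0062 to 0.23 for Rack1, −0.43 to 0.17 for Nap1l1 and −0.45 to 0.014 for Hnrnpa1, and on polysomes from −0.12 to 0.051 for Pabpc1 and −0.021 to 0.21 for Npm1. Between fractions in cKO it ran from −0.57 to 0.41 for Npm1 (−0.69 without both libraries that stood apart) and −0.024 to 0.23 for Naca. Genes called between genotypes ran from 0 to 326 in input (47 without cKO input replicate 2, 326 without replicate 3) and 0 to 231 on polysomes (1 without cHet replicate 1, 160 without cKO replicate 1, 231 without cKO replicate 2). Between fractions they ran from 5722 to 8814 in cHet, with 7 to 8 members, and from 2441 (without cKO polysome replicate 3) to 6023 in cKO, with 4 to 7 members. Without both libraries, 8012 genes and 8 members were called in cKO. With no filter on low values the interaction called 7 of 30833 genes and no member.

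A block for the replicate number between genotypes called 42 genes on polysomes and 0 in input, with no member. Deviations of same-numbered libraries of the 2 genotypes correlated at −0.28 to 0.17, beside 0.05 to 0.25 for input and polysome libraries of 1 number. These ranges overlap, so the correlations cannot tell whether same-numbered libraries of the 2 genotypes share more than a number. A lysate block between fractions called 7425 genes in cHet, 4479 in cKO and 0 for the interaction, with 7, 4 and 0 members. The cause of these changes was not tested, beyond the libraries named. Median-ratio scaling, which the deposited values already carry, called 7239 genes between fractions in cHet, beside 7242.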
